A study of Mus musculus with 12 samples.

Results

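Nkx6-1 and Nkx2-2 are the 2 genes described here, of 21757 protein-coding genes in the GENCODE annotation of mm39. Each was taken with its gene body and 50 kb on each side, and the choice of the genes used no measured value. Nkx6-1 lies on the minus strand at chr5:101806005-101813077 and its window holds 1653 CpGs. Nkx2-2 lies on the minus strand at chr2:147019466-147036163 and its window holds 1363 CpGs, of 21730423 CpGs listed in all. Methylation was measured by whole genome bisulfite sequencing (WGBS), in which an unmethylated cytosine is read as T and a methylated one as C, and the level is the share of methylated reads. A hypomethylated region (HMR) is a run of CpGs with low levels, as called by the authors. The HMRs of the 4 pools of libraries, merged where they overlap, gave 87689 regions, 8 of them in the Nkx6-1 window and 6 in the Nkx2-2 window, and all 14 had enough reads for a test.

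Both genes encode homeodomain transcription factors of the NK class that bind DNA and are needed for β-cell development and for the identity of mature β cells. Nkx6-1 keeps genes of insulin synthesis and glucose sensing on and is largely restricted to β cells among islet endocrine cells. Nkx2-2 is made in several endocrine lineages and in β cells recruits corepressors and a DNA methyltransferase to genes of other lineages. Genes of developmental transcription factors often lie in long unmethylated stretches, here called valleys, that run over the promoter and much of the gene.

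The cells were islet β cells of mice with the alleles Myt1cCre, Ngn3nCre, Rosa26eYFP and InsApple, which every group carried. The Cre fragments are driven by Myt1 and Ngn3, so eYFP+ cells descend from progenitors in which both genes were active (M+N+) and eYFP- cells from progenitors with Ngn3 alone (M-N+). Apple, made from an insulin allele, marks β cells. Islets were taken on postnatal day 2 (P2) or at 2 months, labelled P60, and sorted cells of several batches of mice were combined for each stage and sex. There were 12 libraries, 2 of each subtype at P2 and 4 of each subtype at P60, from mice labelled male or female. The labels give the reporter as eGFP and the cell type as all islet cells, while the sample titles name sorted β cells. A library is thus a mix of animals, and p-values over libraries measure the spread between libraries. The sources do not say whether libraries of one stage and sex were separate mixes, or whether both subtypes came from the same mice. The main permutation tests took all libraries as separate, so libraries that shared mice would make the stage p-values too small.

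A CpG was covered on average by 24.2 reads (eYFP-) or 24.4 reads (eYFP+) in the pools of P2, and by 43.7 or 43.5 reads in those of P60. Single libraries were deposited as HMR positions only, so levels come from pools and cannot be given per library. P2 libraries held 57109 to 60950 HMRs and P60 libraries 38052 to 49939. The pooled counts were deposited apart for each stage. The sample titles name no batch, so stage and any batch that followed it cannot be told apart. Among promoters of β-cell markers, taken as 500 bp on each side of the gene start, Iapp was at 0.323 to 4.85% and Slc2a2 at 5.50 to 7.79% in the 4 pools. Ins1 was at 28.3% (eYFP-) and 35.1% (eYFP+) at P2 and at 7.87% and 5.74% at P60, and Ins2 was at 69.0 to 78.6%. Promoters of the alpha, delta, acinar, blood and endothelial markers and of the duct marker Krt19 were at 38.5 to 86.2%, and the duct marker Sox9 was at 0.717 to 2.11%.

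The 4 stretches of 240 bp given here come from HMRs upstream of the gene starts, and none lies at an edge of a valley. Each is the part of its region with the most CpGs, read from the plus strand of mm39, with CpGs in capitals. Positions in kb are from the gene start, negative upstream and positive downstream. The sequence at -18.4 kb of Nkx6-1 (chr5:101831330-101831569, an intron of the lncRNA Gm73052) and that at -10.9 kb of Nkx2-2 (chr2:147047002-147047241, an intron of the lncRNA Nkx2-2os) belong to small HMRs that P60 libraries of one sex held. The one at -35.4 kb (chr5:101848087-101848326, an intron of the lncRNA Gm42133) belongs to an HMR with no call between stages, and the one at -37.2 kb (chr2:147073599-147073838, an intron of Nkx2-2os) to an HMR with a higher level at P60.
Nkx6-1 -18.4 kb: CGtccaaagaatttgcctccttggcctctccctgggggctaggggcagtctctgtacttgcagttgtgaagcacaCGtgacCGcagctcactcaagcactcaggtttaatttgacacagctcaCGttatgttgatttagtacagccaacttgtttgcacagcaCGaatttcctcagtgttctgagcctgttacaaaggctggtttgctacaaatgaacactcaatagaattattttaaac
Nkx6-1 -35.4 kb: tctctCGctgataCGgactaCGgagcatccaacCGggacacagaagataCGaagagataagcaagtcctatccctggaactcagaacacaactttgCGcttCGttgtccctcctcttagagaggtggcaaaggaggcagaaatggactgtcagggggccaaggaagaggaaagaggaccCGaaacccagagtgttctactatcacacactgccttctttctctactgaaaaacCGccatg
Nkx2-2 -10.9 kb: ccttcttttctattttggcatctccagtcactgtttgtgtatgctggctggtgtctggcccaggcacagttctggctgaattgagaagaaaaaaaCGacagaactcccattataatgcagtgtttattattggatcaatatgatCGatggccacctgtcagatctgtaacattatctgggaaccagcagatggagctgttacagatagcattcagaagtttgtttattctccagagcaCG
Nkx2-2 -37.2 kb: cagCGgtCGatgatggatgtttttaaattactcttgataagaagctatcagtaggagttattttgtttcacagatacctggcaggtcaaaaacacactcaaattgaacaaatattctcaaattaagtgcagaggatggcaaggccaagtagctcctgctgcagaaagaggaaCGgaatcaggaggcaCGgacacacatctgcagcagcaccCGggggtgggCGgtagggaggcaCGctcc
The 5 CpGs of the -18.4 kb sequence stood at 1.67 to 9.77% in the 4 pools. The 9 CpGs at -35.4 kb stood at 16.4 to 28.0%, and the 3 CpGs at -10.9 kb at 2.63% at most. The 7 CpGs at -37.2 kb stood at 20% and 15.9% at P2 and at 57.3% and 53.3% at P60. Short motifs were searched on both strands as letters: TAATTA (homeodomain core), CAAGTG (NK2 class), TGTTTAC (FOXA), CAGATG (E-box) and TGCTGAC (MAF). The letters CAGATG occurred once in each of the Nkx2-2 sequences, and no other motif occurred in the 4 stretches. Among 240 bp windows centred on all 87689 merged HMRs, 21.1% held CAGATG, 8.99% TAATTA, 12.8% CAAGTG, 6.51% TGTTTAC and 5.68% TGCTGAC.

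Both genes lay in a valley in every library. The merged HMR over the Nkx6-1 start was 13342 bp long (chr5:101802884-101816225) with 516 CpGs, and that over the Nkx2-2 start was 15730 bp long (chr2:147022660-147038389) with 584 CpGs, beside a median of 536 bp over all merged HMRs. Over the 12 libraries the median length of the HMR over the start was 9.94 kb for Nkx6-1, the 110th longest of 21757 genes, and 14.4 kb for Nkx2-2, the 64th. Inside the valleys methylation was close to nil. Exon 1 of Nkx6-1, with 177 CpGs, stood at 0.548 to 0.819% in the 4 pools, and its introns and other exons at 0.644 to 2.72%. In Nkx2-2 the first 2 kb upstream of the gene start, with 101 CpGs, stood at 0.569 to 0.717%. Coding transcripts of Nkx2-2 start 7.84 kb downstream of that gene start and within the same valley, and the 2 kb before that start stood at 1.09 to 1.68%.

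**Figure D1:**
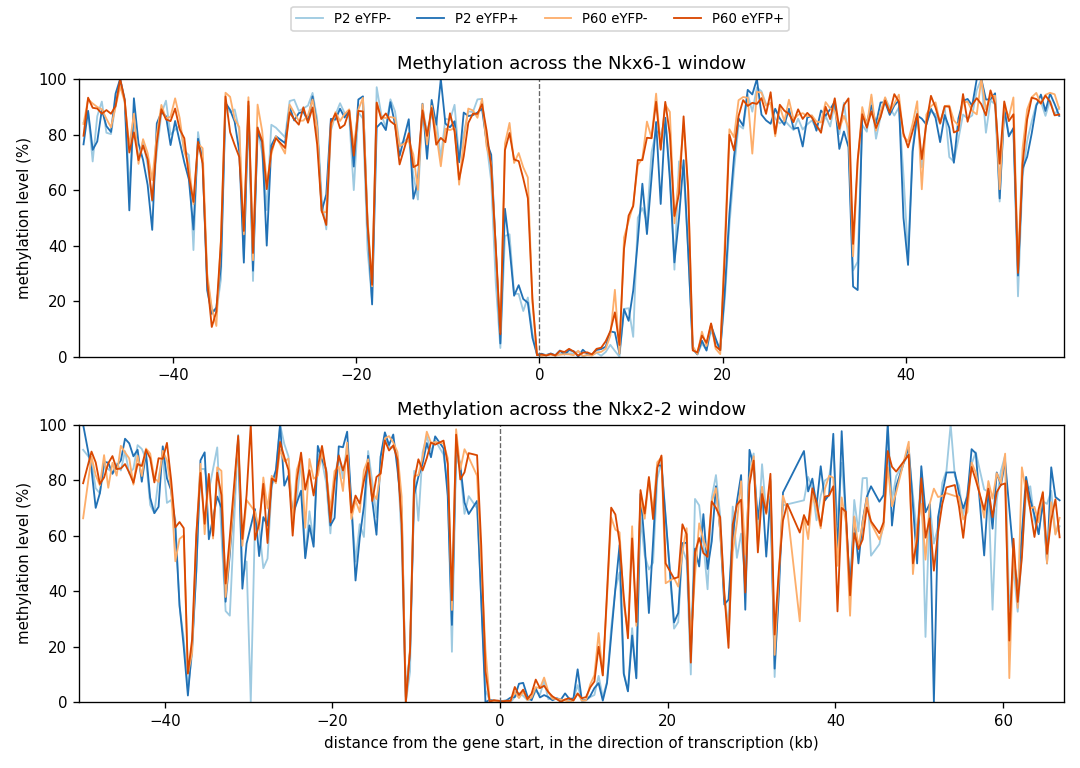
Methylation level (%) in bins of 500 bp against distance from the gene start (kb, positive in the direction of transcription) across the windows of Nkx6-1 and Nkx2-2, with 1 line for each of the 4 pools. The valley of Nkx6-1 reaches past the end of the gene, and that of Nkx2-2 ends inside the annotated gene body. The P2 and P60 lines part at both sides of the Nkx6-1 valley and at the downstream side of the Nkx2-2 valley. They also part at places outside the valleys.

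The first comparison asked how the valleys of these genes differed between neonatal and adult β cells. The valley of Nkx6-1 was shorter at P60. At P2 the HMR over its start measured 14.0 and 13.2 kb in the eYFP- libraries and 12.2 and 13.0 kb in the eYFP+ libraries. At P60 it measured 9.86, 9.86, 9.86 and 9.84 kb in eYFP- and 9.84, 10.02, 10.02 and 9.86 kb in eYFP+ libraries. No P60 library reached the shortest P2 library. The mean fell by 3.19 kb, from 13.1 ± 0.763 kb (SD, n = 4) to 9.90 ± 0.0751 kb (SD, n = 8). The two-sided exact permutation test gave p = 0.00202, which no regrouping of 4 and 8 libraries can go below, and an adjusted p of 0.0121 over the 2 genes and 3 comparisons.

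The valley of Nkx2-2 was also shorter at P60, by less. Its HMR measured 14.9 and 15.4 kb in eYFP- and 15.1 and 14.9 kb in eYFP+ libraries at P2. At P60 the values were 14.4, 13.3, 13.3 and 14.0 kb in eYFP- and 14.3, 13.3, 14.5 and 14.3 kb in eYFP+ libraries. The stages did not overlap, with 14.5 kb in the longest P60 library and 14.9 kb in the shortest P2 library. The mean fell by 1.13 kb, from 15.1 ± 0.261 kb (SD, n = 4) to 13.9 ± 0.559 kb (SD, n = 8; exact permutation p = 0.00808, adjusted p = 0.0242). Part of this fall rested on short gaps between HMRs. With HMRs closer than 500 bp joined, P60 eYFP- replicates 2 and 3 and eYFP+ replicate 2 measured 14.0, 14.6 and 14.0 kb. The stage difference was then -0.790 kb (exact permutation p = 0.00202, adjusted p = 0.00606), beside -3.805 kb at Nkx6-1. A shorter HMR in every P60 than in every P2 library was found at 16.7% of the 11660 genes with an HMR over the start in all libraries, and at 30.1% of the 133 genes whose HMR was at least 10 kb long at P2. None of these 133 was longer in every P60 library, beside 129 of the 11660. Shortening was thus frequent among HMRs that were wide at P2, but these were chosen by their P2 length, which bears on that share. By the loss in kb, Nkx6-1 ranked 67 of 133, the middle of this group, and Nkx2-2 ranked 97. The losses were 24.4% and 7.51% of the P2 lengths.

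**Figure D2:**
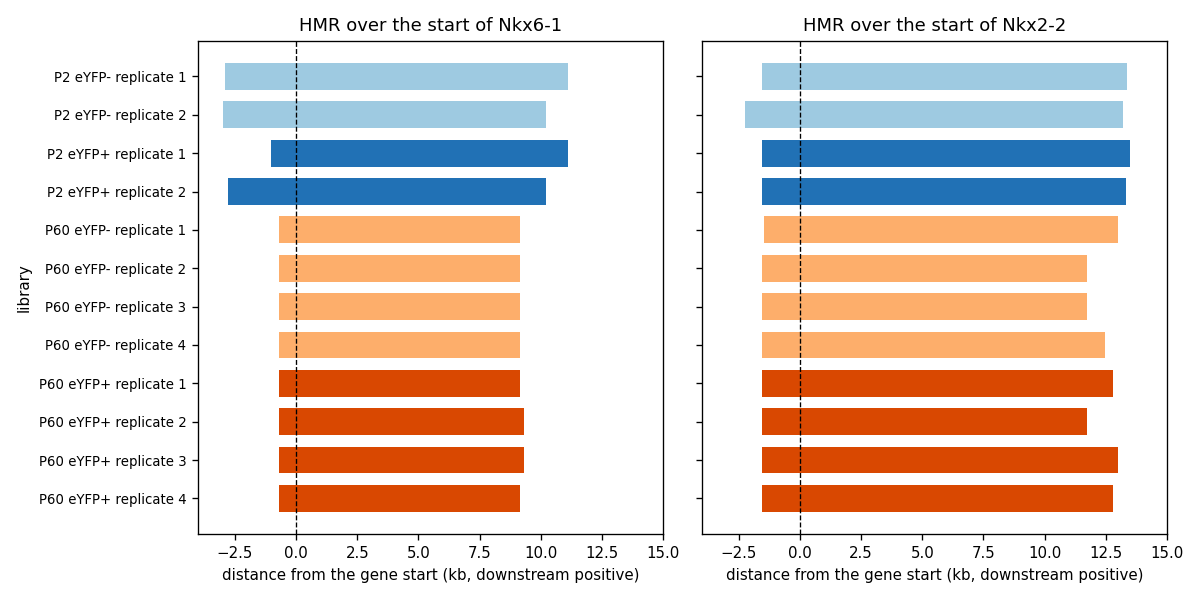
Extent of the HMR over the gene start in each of the 12 libraries, as bars from its upstream to its downstream edge in kb from the gene start (dashed line). The 8 P60 bars of Nkx6-1 end between 0.678 and 0.699 kb upstream of the start, and the 4 P2 bars end between 1.04 and 3.00 kb upstream.

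**Figure D3:**
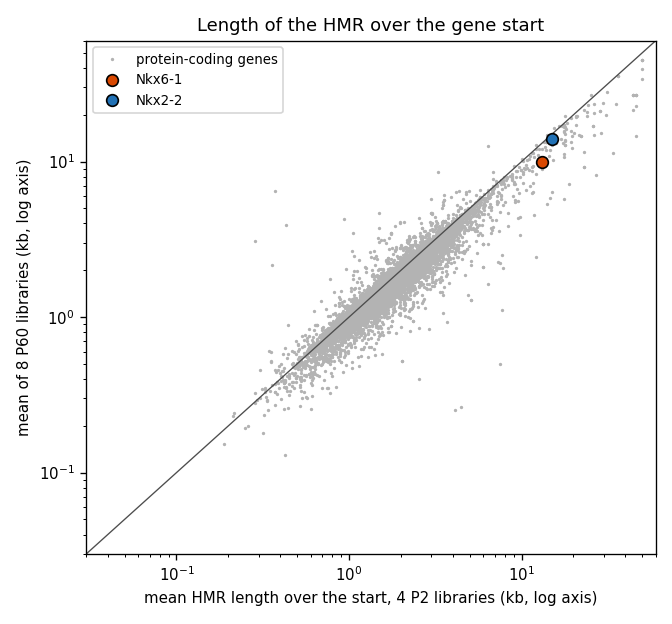
Mean length in kb of the HMR over the gene start in the 4 P2 libraries (x axis, log) and the 8 P60 libraries (y axis, log) for 11660 protein-coding genes, with equal lengths on the line. Nkx6-1 (13.1 and 9.90 kb) and Nkx2-2 (15.1 and 13.9 kb) lie below the line among the longest HMRs.

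Nkx6-1 lost length at both ends and Nkx2-2 lost it downstream. For Nkx6-1 the upstream edge lay 2.89 and 3.00 kb (eYFP-) and 1.04 and 2.79 kb (eYFP+) before the gene start at P2, and 0.678 to 0.699 kb before it in all P60 libraries. Its downstream edge moved less, from 10.2 to 11.1 kb at P2 to 9.16 to 9.32 kb at P60. For Nkx2-2 the upstream edge was at 1.56 kb in 10 of 12 libraries, with 2.23 kb in P2 eYFP- replicate 2 and 1.46 kb in P60 eYFP- replicate 1. The downstream edge of Nkx2-2 moved from 13.2 to 13.5 kb at P2 to 11.7 to 13.0 kb at P60.

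The levels in the pools show what happened to the CpGs at these edges. They are given as a description, since the HMR calls that set the stretches come from the same reads. The 51 CpGs from -2.79 to -1.17 kb of Nkx6-1 lay in an HMR in all P2 libraries and in no P60 library. They stood at 19.5% (95% Wilson interval 17.4 to 21.8) in eYFP- and 20.3% (18.3 to 22.5) in eYFP+ cells at P2, and at 67.6% (65.9 to 69.2) and 65.0% (63.3 to 66.7) at P60. By contrast the 431 CpGs of the core that every library shared (chr5:101803915-101813756) stood at 0.923% and 1.42% at P2 and at 1.12% and 1.69% at P60. The core was set by HMR calls in every library, so a low level at both stages was built in, while this stretch of the flank passed 60%. Other stretches in an HMR in all P2 and no P60 libraries stood lower at P60. That from -1.04 to -0.732 kb stood at 57.3% and 49.4%, and that from 9.32 to 10.2 kb at 49.4% and 51.0%.

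At Nkx2-2 the shared core of 531 CpGs (chr2:147024431-147037622) stood at 1.37% and 1.88% at P2 and at 2.00% and 2.29% at P60. The 14 CpGs from 13.0 to 13.2 kb downstream (chr2:147022943-147023168), in an HMR at P2 only, stood at 21.7% (17.7 to 26.3) and 20.7% (16.7 to 25.3) at P2 and at 60.3% (57.0 to 63.6) and 65.7% (62.6 to 68.8) at P60. The 2 kb that follow the shorter coding transcript went from 7.81% and 7.27% to 25.1% and 26.3%, and its 3′ UTR from 1.74% and 2.65% to 6.20% and 4.61%. Intervals cover counting error only.

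**Figure D4:**
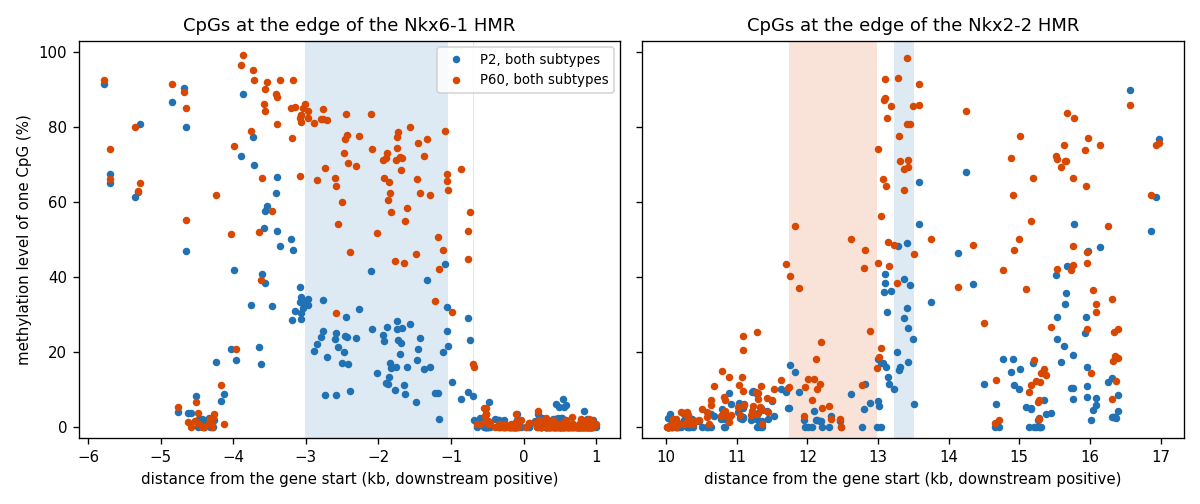
Methylation level (%) of single CpGs with at least 10 reads at each stage, both subtypes added, against distance from the gene start (kb, downstream positive) at the upstream edge of the Nkx6-1 valley and the downstream edge of the Nkx2-2 valley. Shaded bands span the edge positions of the 4 P2 (blue) and 8 P60 (orange) libraries, and P2 and P60 points part where the P2 HMRs went on. At Nkx2-2 some P60 points at the end of the core also lie above 0.

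Single CpGs were compared between pools with two-sided Fisher's exact tests, adjusted over all CpGs of the genome with at least 10 reads in both pools. These tests compare pools of reads, not mice. In the Nkx6-1 window 79 of 1574 CpGs were higher at P60 in eYFP- cells and 69 of 1590 in eYFP+ cells, and 0 were lower. In the Nkx2-2 window 42 of 1209 and 42 of 1195 were higher and 0 were lower. Over the genome 0.658% (eYFP-) and 0.619% (eYFP+) of CpGs were called higher and 0.0657% and 0.104% lower. Called CpGs of Nkx6-1 lay mostly in the merged HMR over its start, with 53 and 47 there, 4 and 5 in its other HMRs and 22 and 17 outside HMRs. Those of Nkx2-2 were split between the HMR over its start (19 and 20) and its other HMRs (16 and 14), with 7 and 8 outside. At an unadjusted p under 0.05 there were 207 and 192 CpGs in the Nkx6-1 window and 145 and 142 in the Nkx2-2 window, beside 8.01% (eYFP-) and 8.49% (eYFP+) over the genome.

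Whole regions were tested in the same way and called where the adjusted p was under 0.05 and the levels differed by at least 10 percentage points. Of the 8 HMRs of Nkx6-1, 1 was called higher at P60 in both subtypes, and 0 were lower. Of the 6 HMRs of Nkx2-2, 4 were called higher in eYFP- and 3 in eYFP+ cells, and 0 were lower. Over 85555 merged HMRs, 27.9% were called higher and 3.05% lower in eYFP- cells and 26.5% higher and 3.99% lower in eYFP+ cells. The median difference over the members was 6.31 and 3.75 points for Nkx6-1 and 15.2 and 12.5 points for Nkx2-2, beside 2.90 and 2.37 over all regions tested. An HMR found in a P2 pool alone was selected for a low level at P2, which bears on its difference. A merged HMR spans the calls of all its pools, so parts of it called only at P2 were selected in the same way.

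The valleys themselves were under the 10 points. That of Nkx6-1 went from 4.73% (95% Wilson interval 4.35 to 5.13) to 12.2% (11.9 to 12.6) in eYFP- and from 4.97% (4.60 to 5.37) to 12.5% (12.1 to 12.9) in eYFP+ cells, with adjusted Fisher p of 8.98e-127 and 1.09e-130. That of Nkx2-2 went from 2.70% and 3.04% to 5.88% and 6.65% (adjusted Fisher's exact p = 5.75e-51 and 1.57e-55). Most CpGs of each valley belong to the core, whose level stayed under 3%. The outer parts of both valleys lay in HMRs of P2 but of no P60 library. They were thus included for low levels at P2 in the same reads, which bears on these differences and their Fisher p.

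Among the 14 merged HMRs taken whole, the largest stage difference lay at the 3′ end of Nkx2-2, at +15.5 kb. This HMR of 1893 bp with 59 CpGs (chr2:147019765-147021657) overlaps the last exon of the longer Nkx2-2 isoform. It was present in all 12 libraries, where presence means an overlap of at least 1 bp with an HMR of the library. It rose from 15.4% (13.6 to 17.3) to 41.2% (39.4 to 43.0) in eYFP- and from 13.3% (11.6 to 15.1) to 38.5% (36.8 to 40.2) in eYFP+ cells, by 25.8 and 25.2 points (adjusted Fisher p = 1.03e-70 and 3.74e-69). Its part from 15.3 to 15.4 kb, with 7 CpGs in an HMR in every library, stood at 1.84% and 2.42% at P2 and 12.5% and 8.52% at P60, and the stretches beside it that all P2 and no P60 libraries called stood at 39.2 to 70.8% at P60. Those stretches were part of the region through P2 calls from the same reads, which bears on its difference and its Fisher p.

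A second HMR of Nkx2-2 present in all 12 libraries lay at -37.2 kb in an intron of Nkx2-2os (chr2:147072497-147074313, 22 CpGs). It rose from 13.6% (10.9 to 16.9) to 30.6% (27.9 to 33.5) in eYFP- and from 15.1% (12.4 to 18.3) to 31.8% (29.2 to 34.5) in eYFP+ cells (adjusted Fisher p = 8.77e-13 and 2.26e-13). The HMR at +21.2 kb, downstream of the gene (chr2:147014625-147015303, 12 CpGs), rose from 25.9% and 30.7% to 39.2% and 43.2% (adjusted Fisher's exact p = 0.000417 and 0.00166). It was found in the P2 pools and in only 1 library of each P2 subtype. The smallest, at -32.5 kb (chr2:147068603-147068771, 5 CpGs), was an HMR of the P2 eYFP- pool alone, selected for a low level there, and overlapped an HMR in 0 of 12 libraries. It rose from 5.77% to 22.9% in eYFP- cells (adjusted Fisher's exact p = 0.000191) and stood at 16.2% and 28.6% in eYFP+ cells (adjusted p = 0.0763).

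Of the Nkx6-1 regions, the one called lay at -37.6 kb over an exon of Gm42133 (chr5:101850615-101850837, 6 CpGs). It rose from 13.2% (8.74 to 19.6) to 31.9% (26.6 to 37.8) in eYFP- and from 21.3% (15.6 to 28.2) to 35.2% (30.5 to 40.2) in eYFP+ cells (adjusted Fisher p = 7.31e-05 and 0.00401). It was an HMR of the P2 eYFP- pool alone and overlapped an HMR in 0 of 12 libraries. Its neighbour at -35.4 kb (chr5:101847880-101849169, 23 CpGs) was present in all 12 libraries and stood at 15.6% and 17.1% at P2 and at 14.1% and 14.8% at P60, with adjusted p of 0.539 and 0.322. It was the only one of the 14 HMRs with a lower level at P60 in both subtypes.

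The other Nkx6-1 regions differed by less than 10 points. The HMR at +18.5 kb, beyond the 3′ end of the gene (chr5:101792431-101796798), is 4368 bp long with 125 CpGs and was present in all libraries. It stood at 6.77% and 6.86% at P2 and at 10.2% and 9.91% at P60 (adjusted Fisher's exact p = 5.87e-08 and 2.36e-06). The HMR at -4.3 kb (chr5:101817034-101817703), in an intron of Gm73052 and also present in all libraries, stood at 5.41% and 7.66% at P2 and at 11.2% and 10.7% at P60 (adjusted Fisher's exact p = 0.000217 and 0.106). The 16 CpGs of it that every library called stood at 1.24% and 2.92% and then at 2.08% and 1.05%. The HMR at -23.5 kb stood at 21.6 and 24.1% at P2 and 29.1 and 28.5% at P60, and that at +52.3 kb at 10.3 and 19.9% and then 17.2 and 20.4%.

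**Figure D5:**
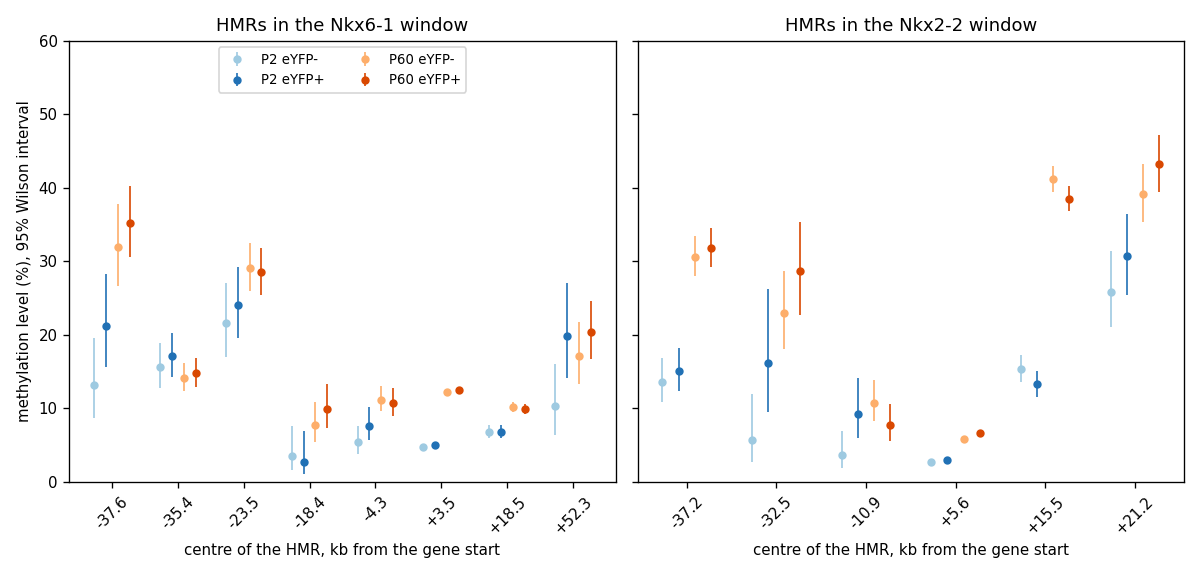
Methylation level (%) with its 95% Wilson interval in the 4 pools for the 8 merged HMRs of the Nkx6-1 window and the 6 of the Nkx2-2 window, ordered by the distance of their centres from the gene start (kb). The HMRs of Nkx2-2 at +15.5 and -37.2 kb stand apart between P2 and P60, and that of Nkx6-1 at -35.4 kb does not.

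Over the whole window, the share of CpGs in HMRs fell at both genes. For Nkx6-1 it was 41.4 and 42.2% in eYFP- and 41.7 and 40.6% in eYFP+ libraries at P2, and 35.3, 35.5, 35.3 and 35.3% and 35.1, 35.5, 36.0 and 35.6% at P60. For Nkx2-2 it was 48.4 and 48.9% and 50.6 and 48.3% at P2, and 42.1, 42.6, 42.4 and 42.8% and 42.5, 41.9, 42.6 and 42.3% at P60. Every P60 library lay below every P2 library. The mean fell by 6.03 points at Nkx6-1, from 41.5 ± 0.682% (SD, n = 4) to 35.4 ± 0.264% (SD, n = 8), and fell by 6.64 points at Nkx2-2, from 49.0 ± 1.03% (SD, n = 4) to 42.4 ± 0.299% (SD, n = 8), each with an exact permutation p of 0.00202 and an adjusted p of 0.00606. The share was not computed for other genes, so whether its fall is particular to these windows was not tested. Over the genome, P2 libraries held 57109 to 60950 HMRs and P60 libraries 38052 to 49939. Outside the merged HMRs the level of the Nkx6-1 window was 78.7% and 78.2% at P2 and 83.5% and 82.2% at P60, and that of the Nkx2-2 window 74.6% in both subtypes and then 76.1% and 75.6%. By an overlap of at least 1 bp, no HMR of either window was present in all P2 and no P60 libraries or the reverse, patterns that 5.27% and 0.0627% of all merged HMRs showed. By an overlap of at least 50%, 1 HMR of Nkx2-2 was present in all P2 and no P60 libraries, beside 5218 of all 87689.

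The second comparison asked whether the β-cell subtypes differed at these genes. At P60 the valley length overlapped between eYFP- and eYFP+ libraries at both genes. The difference (eYFP+ minus eYFP-) was 0.077 kb for Nkx6-1 (9.93 against 9.86 kb) and 0.361 kb for Nkx2-2 (14.1 against 13.8 kb), each with an exact permutation p of 0.4 (adjusted p = 0.48). At P2 the 2 eYFP- lengths of Nkx6-1 were above the 2 eYFP+ lengths, with a difference of -1.04 kb, and the exact permutation p was 0.333, which 2 against 2 libraries cannot go below. The order rested on short gaps between HMRs: with HMRs closer than 500 bp joined, the eYFP+ lengths became 14.2 and 13.4 kb and the difference 0.195 kb. The share of window CpGs in HMRs differed by 0.197 points at Nkx6-1 and -0.147 points at Nkx2-2 at P60 (exact permutation p = 0.4 and 0.571, adjusted p = 0.8 for both). The stage difference in length was 1.11 kb smaller in eYFP+ than in eYFP- cells at Nkx6-1 (exact permutation of subtype labels within stages, p = 0.0667, adjusted p = 0.267 over 4 such tests). With HMRs closer than 500 bp joined, an alternative chosen after seeing the data, it was -0.117 kb (eYFP+ minus eYFP-, exact permutation p = 0.638). The other 3 tests gave 0.584 kb for the Nkx2-2 length, and 0.862 and -0.954 points for the share at Nkx6-1 and Nkx2-2, with exact permutation p of 0.205, 0.295 and 0.557.

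No region of either window was called between the subtypes, of 14 HMRs at each stage, beside 1.36% of all merged HMRs at P2 and 0.742% at P60. The smallest adjusted Fisher p was 0.00742, for the Nkx2-2 valley at P60, where eYFP+ cells stood at 6.65% (6.38 to 6.92) and eYFP- cells at 5.88% (5.64 to 6.14), a difference of 0.764 points. At P2 the same valley stood at 3.04% and 2.70% (adjusted Fisher's exact p = 0.445). The largest difference at P2, 10.4 points at the -32.5 kb region of Nkx2-2 (16.2% in eYFP+ on 74 reads, 5.77% in eYFP- on 104 reads), had an adjusted p of 0.307, and the region was chosen by its low level in the eYFP- pool.

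No single CpG of the windows was called between the subtypes by the adjusted Fisher test at P2, where 1.04e-05% of CpGs of the genome were called, or at P60, where 5.05e-06% were. At an unadjusted p under 0.05 there were 22 of 1567 CpGs in the Nkx6-1 window and 20 of 1182 in the Nkx2-2 window at P2, beside 2.72% over the genome, and 52 of 1617 and 43 of 1318 at P60, beside 3.42%. The study's gate for differentially methylated regions (DMRs) takes parts of an HMR of one subtype outside the HMRs of the other, at least 50 bp long with at least 2 differing CpGs. Rebuilt from the counts, 0 DMRs lay in the windows. The Nkx6-1 window held 4 candidates lower in eYFP- and 4 lower in eYFP+ at P2, and 1 and 3 at P60. The Nkx2-2 window held 4 and 2 at P2 and 3 and 1 at P60, and over the genome 7.42% of candidates passed the gate at P2 and 6.25% at P60. No HMR was present in all libraries of one subtype and none of the other. Genome-wide this held at P60 for 0.016% of merged HMRs (in eYFP+ only) and 0.0205% (in eYFP- only), and at P2 for 1.4% and 1.09%.

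One HMR in each window followed the sex on the labels at P60, a pattern chosen after the values were seen and given with no test. The HMR of Nkx6-1 at -18.4 kb (285 bp, chr5:101831330-101831614, 6 CpGs) was called in all 4 P2 libraries, in all 4 P60 libraries labelled male and in 0 of 4 labelled female. The HMR of Nkx2-2 at -10.9 kb (529 bp, chr2:147046759-147047287, 7 CpGs) showed the same calls. Pooled levels do not separate the sexes. They were 3.57% and 2.76% at P2 and 7.75% and 9.90% at P60 at -18.4 kb, and 3.73% and 9.28% and then 10.8% and 7.69% at -10.9 kb. Of the autosomal merged HMRs, 1.22% were present in all P60 male and no P60 female libraries and 0.0249% the other way round. Among the 12367 with at most 10 CpGs that all P2 libraries held, the shares were 3.55% and 0.0243%. P60 libraries labelled male held 46269 to 49939 HMRs and those labelled female 38052 to 44636, and the part of this in the calls at these sites was not tested.

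Among other genes, those whose HMR over the start was most like Nkx6-1 in length, by the mean absolute difference of log2 length over the 12 libraries, were Irf2bp2 (0.0923), Isl1 (0.126), Ebf2 (0.133), Nkx2-5 (0.135) and Lhx8 (0.141). Isl1 encodes an islet homeodomain factor and Nkx2-5 a cardiac NK factor. Irf2bp2 spanned 9.92 to 14.0 kb at P2 and 9.20 to 11.0 kb at P60, so that its stages overlapped, as did those of Nkx2-5 and Lhx8. Those of Isl1 (11.7 to 11.8 kb and 10.03 to 11.1 kb) and Ebf2 (10.8 to 11.2 kb and 9.64 to 10.7 kb) did not overlap. Those most like Nkx2-2 were Ebf3 (0.0800), Dmrt3 (0.0894), Meis2 (0.0955), Tfap2d (0.0963) and Hoxd8 (0.0972), all genes of transcription factors. The stages of Meis2 did not overlap, with 14.4 to 15.3 kb at P2 and 12.5 to 13.0 kb at P60, while those of Ebf3, Dmrt3, Tfap2d and Hoxd8 did.

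Of 12 further NK homeobox genes, 11 had an HMR over the start and 0 were called at P60 in either subtype, with a median difference of 1.50 points in eYFP- and 1.53 in eYFP+ cells. Nkx6-2, the closest relative of Nkx6-1, differed most, from 3.94% and 3.57% to 10.7% and 10.04%. The median over 13162 protein-coding genes was 0.177 and 0.0419 points. Over these genes 2.53% were called higher and 0.266% lower in eYFP- cells, and 2.39% and 0.509% in eYFP+ cells. Of 19 islet transcription factors 17 had such an HMR, with a median difference of 1.27 points in eYFP- and 1.07 in eYFP+ cells, and 1 was called, Myt1, which rose from 9.52% to 20.6% in eYFP- cells. Foxa2, a forkhead factor of endoderm, stood at 6.74% and 6.10% at P2 and 15.01% and 14.8% at P60, and Pdx1 at 2.78% and 3.12% and then 2.98% and 3.08%. Differences below 0 in both subtypes were found for Rfx6 (-2.66 and -3.66 points), Neurod1 (-1.53 and -1.81) and Mafa (-0.876 and -1.01).

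Genes known to need Nkx6-1 in β cells include some with lower levels at P60. Of 4, 2 were called lower at P60 in eYFP- and 3 in eYFP+ cells, beside 0.266% and 0.509% of all protein-coding genes with such an HMR. The median difference of the 4 was -11.0 and -14.2 points. They were listed with earlier results of these data known, and a link of these levels to Nkx6-1 was not tested. Glp1r, the receptor of the incretin GLP-1, fell from 19.2% to 2.93% in eYFP- and from 22.6% to 4.07% in eYFP+ cells. Ero1b, an oxidase for disulfide bonds of proinsulin, fell from 18.3% to 3.88% and from 21.3% to 4.61%. Slc30a8, the zinc transporter of insulin granules, stood at 12.03% and 4.45% in eYFP- cells and fell from 16.8% to 5.24% in eYFP+ cells. Slc2a2, the glucose transporter GLUT2, stood at 8.96% and 12.2% at P2 and at 6.20% and 7.23% at P60. Partners of Nkx2-2 (Hdac1, Tle3 and the DNA methyltransferase gene Dnmt3a) had 0 of 3 called and levels of 1.21 to 4.46%.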

How the data were processed

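WGBS libraries were made by tagmentation. The authors trimmed the reads (Trim Galore 0.6.6, cutadapt 1.16 and FastQC, with SAMtools 1.5, per the labels), mapped them to mm39 with abismal, and called HMRs with MethPipe, whose version is not given in the sources used here. The deposited values are counts of methylated and unmethylated reads per CpG in pools of one stage, both sexes together, and HMR positions per pool and per library. The counts do not name the subtypes: the column pair B1 was taken as eYFP- and B2 as eYFP+. Deposited scores and DMR lists of the authors' own comparison were not used.

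HMRs of the 4 pools were merged where they overlap. Regions with at least 10 reads in every pool and CpGs with at least 10 reads in both were tested by Fisher's exact test, two-sided, with p-values adjusted over the genome by the Benjamini-Hochberg method. Library values were compared with exact permutation tests, adjusted over the 2 genes and 3 comparisons, and shares have 95% Wilson intervals. Scripts were tested on simulated data. Python 3.11.15, numpy 2.4.6, pandas 2.3.3, scipy 1.17.1, numba 0.67.0 and pysam 0.24.0 were used.

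The genes, lists and rules were chosen with earlier results of these data known. Described HMRs are all those of the windows, with most detail for those over the start, called, or with a pattern over libraries, and 5 genes alike in length per member. Same-numbered P60 libraries of the subtypes deviated together in HMR presence (correlations 0.150, 0.204, 0.309 and 0.140), so replicate numbers, which also share a sex, were treated as pairs in an alternative, while the main tests were unpaired. Same-sex libraries of other numbers could correlate as much (0.232 for eYFP- replicate 2 with eYFP+ replicate 4). Alternatives changed the read minimum, the least difference, the HMR definition and the libraries used. Some items are not reported here.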

Additional observations from a re-analysis of the deposited data

Results flagged for a closer look

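In a group of 4 libraries, a value was marked where it stood apart from the other 3, which chance does in about 1 of 20 groups, and 8 groups were examined. The length of the HMR over the Nkx6-1 start was 9.841 kb in P60 eYFP- replicate 4 and 9.862 kb in each of the other three, a step of 0.021 kb between neighbouring CpGs. The length over the Nkx2-2 start was 13.291 kb in P60 eYFP+ replicate 2, below 14.332, 14.540 and 14.332 kb in replicates 1, 3 and 4. The same 13.291 kb was found in P60 eYFP- replicates 2 and 3.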

How the results depend on the processing

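The shorter HMRs over both starts and the lower share of window CpGs in HMRs at P60 kept their direction under the alternatives tried. Leaving out 1 library at a time, the stage difference in length ranged from -3.50 to -2.88 kb at Nkx6-1 and from -1.22 to -1.01 kb at Nkx2-2, and that in the share from -6.32 to -5.77 and from -6.87 to -6.14 points, with adjusted p of at most 0.0455. With 4 of the 8 P60 libraries the adjusted exact permutation p was 0.0857, since 4 against 4 libraries cannot give an unadjusted p below 0.0286. The length difference at Nkx6-1 was then -3.19 kb with replicates 1 and 2, with 3 and 4, with male and with female libraries, and at Nkx2-2 -1.24, -1.03, -1.34 and -0.925 kb. The share differed by -6.13, -5.93, -6.004 and -6.05 points at Nkx6-1 and by -6.79, -6.49, -6.64 and -6.64 points at Nkx2-2. The splits by sex were chosen after seeing the data.

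Subtype differences in length and share, none of which passed the permutation test, changed sign under some alternatives, and the cause was not tested. With P60 replicates 1 and 2 the Nkx2-2 length difference was -0.054 kb and the Nkx6-1 share difference -0.0908 points, and with P60 female libraries the Nkx2-2 share difference was 0.293 points. Joining HMRs closer than 500 bp gave 0.195 kb for the Nkx6-1 length at P2. Without 1 library, the P2 difference at Nkx2-2 ranged from -0.483 to 0.036 kb in length (above 0 without P2 eYFP- replicate 2) and from -0.294 to 1.91 points in share (below 0 without P2 eYFP+ replicate 1). With the replicate block at P60, an exact permutation within pairs that cannot give a p below 0.125, the differences were 0.077 and 0.361 kb (adjusted p = 0.6 for both) and 0.197 and -0.147 points (adjusted p = 0.938 for both), and it changed no call. No paired test was used at P2, with 2 libraries a subtype.

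At a least difference of 20 points, 0 HMRs of Nkx6-1 and 1 of Nkx2-2 were called higher at P60 in each subtype. Where presence needed an overlap of at least 50%, 1 HMR of Nkx2-2 was present in all P2 and no P60 libraries. With the unweighted mean of CpG levels, the 679 bp HMR of Nkx2-2 differed by 9.11 points in eYFP- cells, under the 10 points, and the 322 bp HMR of Nkx6-1 by -0.755 points in eYFP+ cells. Small HMRs rest on few reads, from 74 at 5 CpGs, and no level is known per library.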
